A study of Mus musculus with 12 samples.

Results

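The kainate receptor genes Grik1 to Grik5 and the delta receptor gene Grid1 were examined for peaks of lysine crotonylation (Kcr), an acyl mark that is found on histone lysines. These 6 genes were chosen by gene family, out of 21883 protein-coding genes of the RefSeq GRCm38 gene table. Earlier results of these data were known when they were chosen. Every peak in a gene body or within 5 kb of either end was taken from 2 deposited peak lists. One list (learning) is from mice that had been trained on spatial object recognition, a task in which they learn object positions, and the other (homecage) is from mice that stayed in the home cage. Both libraries were made from dorsal hippocampus of C57BL/6J mice. Chromatin crosslinked with formaldehyde and sonicated to 200 to 500 bp was precipitated with a pan-Kcr antibody, which binds crotonylated lysine in any protein. The labels do not give age or sex for these libraries, nor whether a library pools animals. Each condition had 1 antibody library, so no difference between conditions has a replicate check and no p-value is given. The lists hold positions only, so the read depth is unknown and the only measurements are where a peak lies and how wide it is. Chromosomes 1 to 19, X and Y carried 16002 learning and 331236 homecage peaks, a ratio of 20.7. What share of this gap comes from read depth was not tested, so a gene without a learning peak is only not called in that library.

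Kainate receptors are glutamate-gated cation channels built from 4 subunits. GluK1, GluK2 and GluK3, encoded by Grik1, Grik2 and Grik3, can form channels by themselves, whereas GluK4 and GluK5, encoded by Grik4 and Grik5, bind glutamate with higher affinity and reach the membrane as channels together with GluK1 to GluK3. In the hippocampus kainate receptors are best known from the mossy fibre synapses onto CA3 pyramidal cells, where they act on both sides of the synapse. GluD1, encoded by Grid1, belongs to the same superfamily but is not opened by glutamate in the usual way. It binds secreted cerebellins, which link it to presynaptic neurexins.

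The peaks near the start sites of 4 genes are described first, because there the promoter sequence can be set beside the peaks. The RefSeq promoter table gave a start site and strand for Grik2, Grik3, Grik4 and Grik5. Each of these starts lies inside the gene body as the gene table gives it, so it is not the outermost end of the gene. For Grik5 the start is at 25072369, while the body reaches to 25075694. The printed bases therefore also lie within the gene bodies. Below are the 250 bases before each start in GRCm38, from RefSeq, read 5' to 3' on the strand of the gene and ending at the base before the start. All 4 are shown so that the covered and uncovered bases can be compared. For Grik5 (chr7:25072370-25072619, minus strand) capitals mark the 148 bases under a learning peak. For Grik4 (chr9:42944372-42944621, minus strand) and Grik2 (chr10:49788755-49789004, minus strand) capitals mark bases under a homecage peak. For Grik3 (chr4:125490446-125490695, plus strand) no base lay under a peak of either list.
Grik5: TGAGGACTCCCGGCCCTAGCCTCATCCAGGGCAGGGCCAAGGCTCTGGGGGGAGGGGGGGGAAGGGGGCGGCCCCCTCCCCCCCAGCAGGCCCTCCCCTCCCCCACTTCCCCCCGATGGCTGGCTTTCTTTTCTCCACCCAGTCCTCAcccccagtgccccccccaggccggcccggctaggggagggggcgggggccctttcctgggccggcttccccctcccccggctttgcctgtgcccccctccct
Grik4: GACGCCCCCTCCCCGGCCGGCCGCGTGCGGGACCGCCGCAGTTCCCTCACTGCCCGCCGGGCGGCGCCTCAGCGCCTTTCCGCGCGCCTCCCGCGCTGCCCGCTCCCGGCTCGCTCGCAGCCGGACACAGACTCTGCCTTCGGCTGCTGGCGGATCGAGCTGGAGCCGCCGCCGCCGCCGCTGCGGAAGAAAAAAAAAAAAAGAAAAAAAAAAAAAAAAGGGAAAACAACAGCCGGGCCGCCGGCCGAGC
Grik2: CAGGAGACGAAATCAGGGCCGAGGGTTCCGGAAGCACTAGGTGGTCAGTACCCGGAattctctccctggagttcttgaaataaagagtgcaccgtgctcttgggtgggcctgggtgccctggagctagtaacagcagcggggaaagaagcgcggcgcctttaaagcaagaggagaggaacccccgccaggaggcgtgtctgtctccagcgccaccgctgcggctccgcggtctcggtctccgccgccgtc
Grik3: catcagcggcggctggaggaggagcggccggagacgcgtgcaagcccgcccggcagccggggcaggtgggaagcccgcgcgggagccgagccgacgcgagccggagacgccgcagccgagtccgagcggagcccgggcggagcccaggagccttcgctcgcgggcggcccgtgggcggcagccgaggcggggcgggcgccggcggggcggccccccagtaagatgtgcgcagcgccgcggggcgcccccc

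At Grik5 the learning peak chr7:25072472-25073702 was 1231 bp wide and reached from 1333 to 103 bp before the start. It was the widest learning peak at any of the 6 genes, and 99.4% of all learning peaks were narrower. The homecage peak chr7:25071508-25073600, 2093 bp wide, spanned the start itself and covered all 250 bases of the printed Grik5 sequence. It was likewise the widest homecage peak at the 6 genes, with 99.9% of the homecage list narrower. These peaks shared 1129 bp, so most of the learning peak lay inside the homecage peak.

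At Grik4 the homecage peak chr9:42944068-42944694 (627 bp) spanned the start and covered all 250 printed bases. The learning peak chr9:42943860-42944022 (163 bp) lay 349 to 511 bp after the start and ended 45 bp short of the homecage peak. At Grik2 a homecage peak of 147 bp, chr10:49788949-49789095, lay 195 to 341 bp before the start and covered 56 of the printed bases. The learning peak there, chr10:49788356-49788608 (253 bp), lay 146 to 398 bp after the start, 340 bp from the homecage peak. Thus each library had a peak close to the Grik4 and Grik2 starts, but the 2 lists did not overlap there. At Grik3 the nearest homecage peak, chr4:125491727-125492202 (476 bp), began 1031 bp after the start, and the only learning peak of the gene lay 103684 bp after the start.

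**Figure D1:**
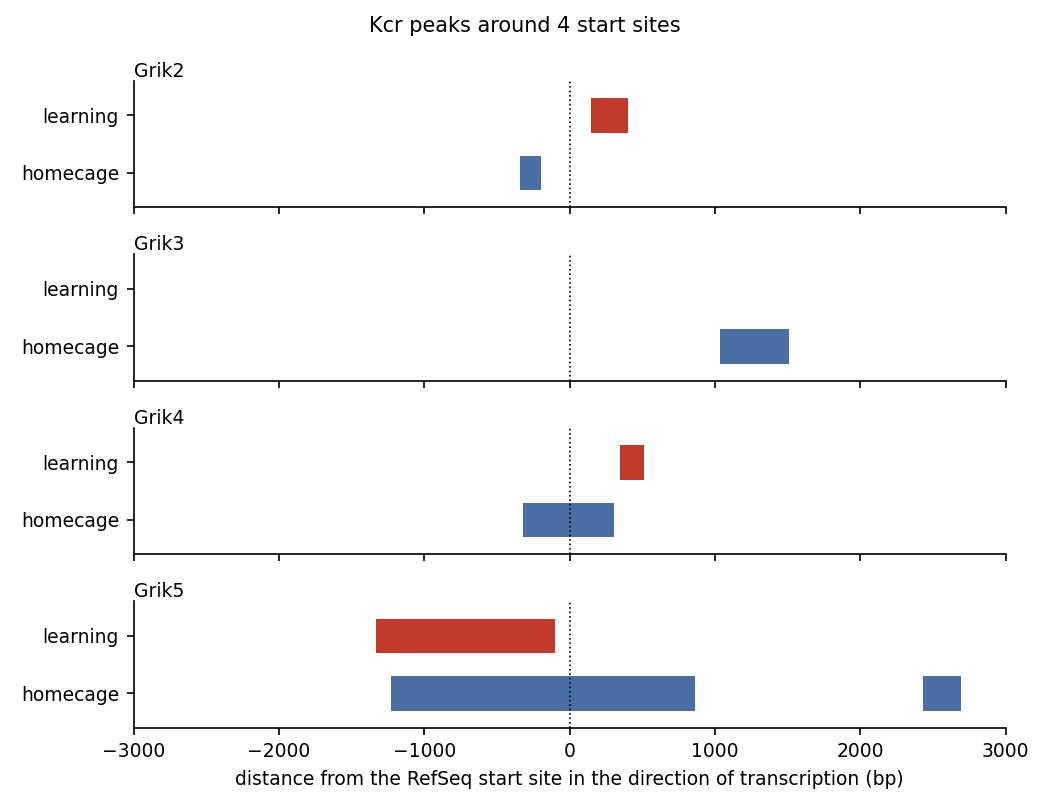
Peaks within 3000 bp of the RefSeq start site of 4 genes, drawn to scale as boxes, with distance in bp in the direction of transcription on the x axis and the 2 libraries as rows. At Grik5 the learning box of 1231 bp and the homecage box of 2093 bp overlap before the start, at Grik4 and Grik2 the boxes of the 2 lists stand apart by 45 and 340 bp, and at Grik3 there is only a homecage box.

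In each list, 3 of the 4 genes had a peak within 1 kb of the start (75%, exact Clopper-Pearson 95% interval 19.4 to 99.4%). Of the 17491 protein-coding genes with a RefSeq start, 16.4% had a learning peak and 51.5% a homecage peak in that window, and 14.0% had both. Among such genes of at least 200 kb the shares were 26.3% for the learning list and 67.3% for the homecage list. With 4 genes, the interval of the learning share began above the share of all genes but included that of the long genes, and the interval of the homecage share included both of its backgrounds. These intervals treat the 4 genes as independent draws, although they are relatives that happened to have a listed start. They are therefore not a test against the background shares. The printed sequences differed in composition. Grik3, the one without a peak in that window, was the richest in G and C at 82.0%, above 99.2% of 21262 promoter sequences of this length, and held 42 CpG dinucleotides against a median of 10.0. Grik4 held 36 CpG at 69.6% G and C, and Grik2 held 20 at 62.8%. Grik5 was rich in G and C at 75.2% but held only 8 CpG. The hexamer GGGCGG, the core of the GC box bound by Sp1-type factors, was searched on both strands and occurred 6 times in the Grik3 sequence, 2 times in Grik5, once in Grik4 and not in Grik2, and 42.6% of all promoter sequences held it. Neither TGACG, the cyclic AMP response element core (20.2% of promoter sequences), nor TATAAA (11.6%) occurred in any of the 4.

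Over the whole gene windows, all 6 genes had a peak in both lists, with 16 learning and 358 homecage peaks in a combined span of 2.63 Mb. A learning peak was present at 30.9% of all protein-coding genes and a homecage peak at 90.5%, and 30.6% had both. Long genes have more room for a peak, and all members but Grik5 are longer than 200 kb. Of the 989 protein-coding genes of at least that length, 76.9% had a learning peak and 98.2% a homecage peak, so having one is the usual state of a gene of this size. This class includes genes of chromosome X, which had few peaks in either list, such as Dmd with 0 learning and 7 homecage peaks over 2390387 bp. All 6 members are autosomal, and every rank among long genes given below was taken with the chromosome X genes included. The homecage list held 22.4 peaks per learning peak at the 6 genes (95% interval 13.6 to 39.6, from the exact binomial interval of the learning share), against 20.7 over the whole lists and 24.6 at long genes. This ratio was far from even among the genes. It was 3.25 at Grik5, 12.4 at Grik2, 27.0 at Grik3, 35.5 at Grik4, 64.0 at Grik1 and 96.0 at Grid1. Grik1, Grik3 and Grid1 had a single learning peak each, so their ratio is the homecage count itself. Of the 4 learning peaks counted at Grik5, only 1 lay inside the gene. The order of the genes mostly follows the learning list, since homecage density varied only from 11.5 to 17.1 peaks per 100 kb. Grik3 and Grik4 are the exception, with learning densities of 0.428 and 0.458 and homecage densities of 11.5 and 16.3 per 100 kb. With 1 to 7 learning peaks a gene, counting error is large, and neighbours in this order are not shown to differ.

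**Figure D2:**
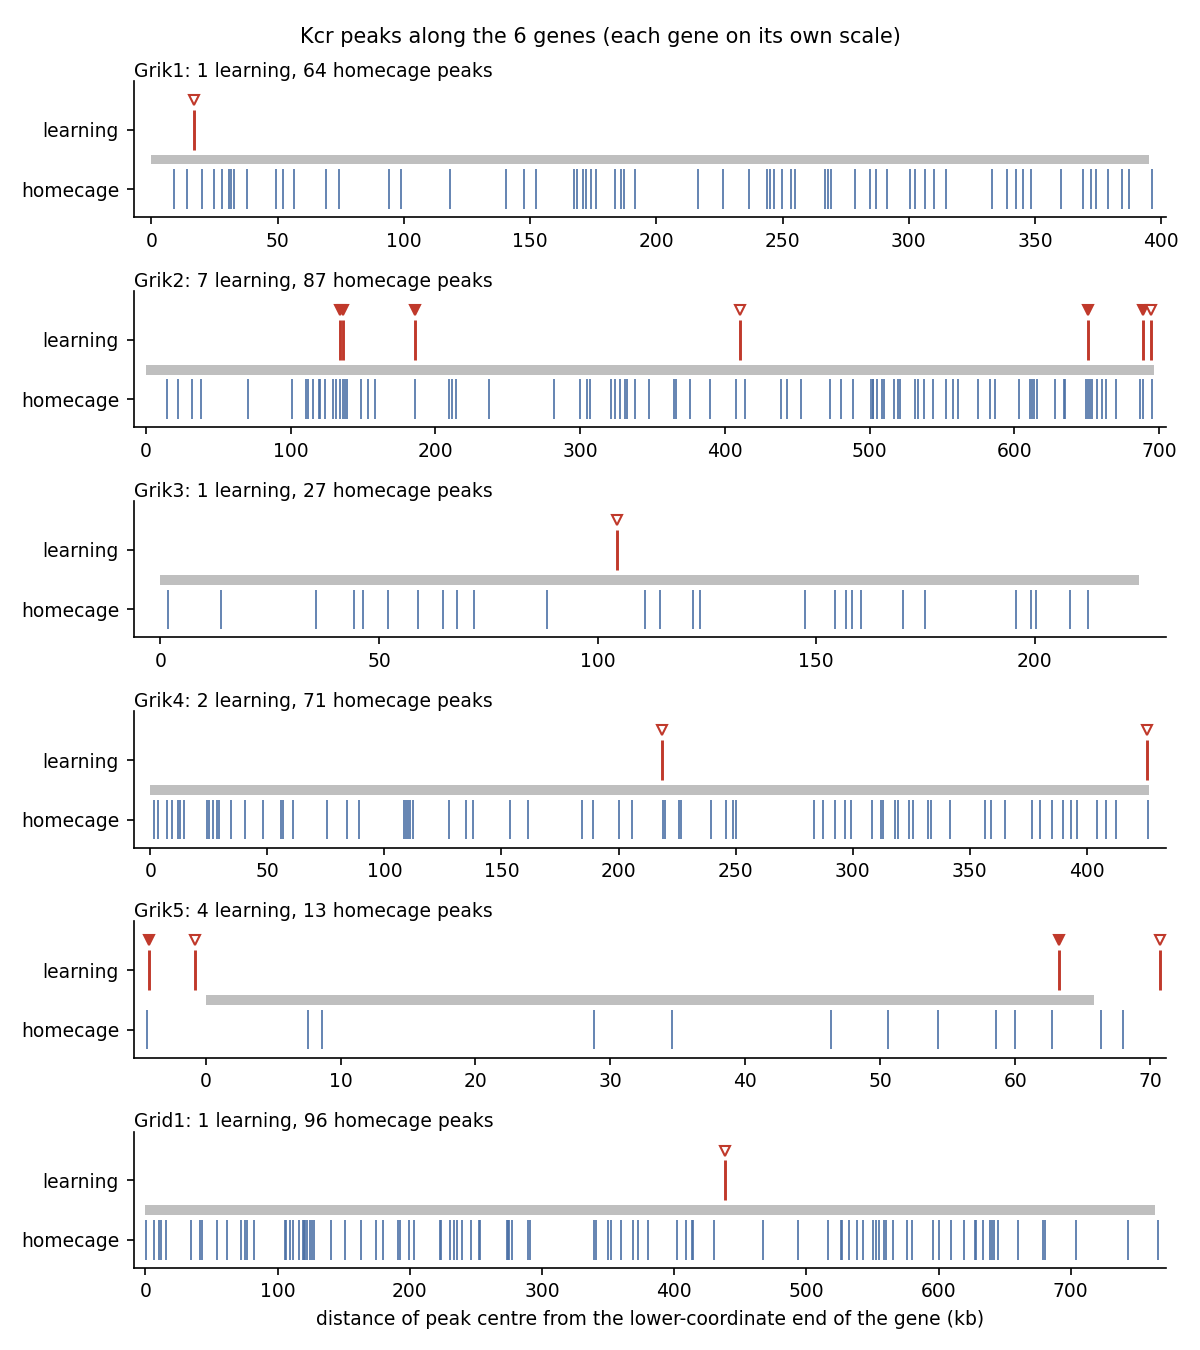
Position of every peak along the 6 genes, in kb from the gene end with the lower coordinate, with learning peaks above and homecage peaks below the grey gene bar. Filled triangles mark learning peaks that overlap a homecage peak and open triangles those that do not. The filled triangles are confined to the windows of Grik2, with 5, and Grik5, with 2, and those of Grik5 are not both inside the gene.

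Grik2 encodes GluK2, the subunit of the commonest kainate receptors of hippocampal principal cells. Its 696482 bp body (chr10:49093680-49790161) held 7 learning peaks, the most of the 6 genes, and 87 homecage peaks. At least 7 learning peaks were found at 4.65% of the long genes. Per length, Grik2 had 0.991 learning peaks per 100 kb, above 86.9% of long genes, whereas its 12.3 homecage peaks per 100 kb were above 35.3% of them. The learning peaks lay in the part of the gene towards the start and in its distal part, with 1 peak alone between them. The gaps from that peak to its neighbours were 224108 and 240344 bp. Besides the peak at the start, chr10:49782425-49782957 (533 bp) and chr10:49744637-49745217 (581 bp) lay 5797 and 43537 bp after it. The latter lay wholly within a homecage peak of 985 bp, chr10:49744397-49745381, the second widest homecage peak of the gene. A lone peak of 154 bp, chr10:49504139-49504292, had its nearest homecage peak 2289 bp away. In the distal part, chr10:49279809-49280030 (222 bp) lay wholly inside the homecage peak chr10:49279639-49280187 (549 bp), and a pair only 2063 bp apart followed. That pair, chr10:49227629-49227797 (169 bp) and chr10:49229861-49230051 (191 bp), shared 136 and 177 bp with homecage peaks of 343 and 269 bp. In all, 5 of the 7 learning peaks of Grik2 overlapped a homecage peak. The widest homecage peak, chr10:49593736-49595007 (1272 bp), had no learning partner. Homecage peaks were unevenly spread, from 5 to 19 in complete 100 kb segments counted from the lower-coordinate end, with a stretch of 44080 bp (chr10:49331118-49375197) that held none.

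Grik1 encodes GluK1, a subunit known in the hippocampus mainly from interneurons. With 5 kb on either side, the gene (chr16:87895901-88290863, 394963 bp) carried 64 homecage peaks, 15.8 per 100 kb, above 81.1% of long genes. The complete 100 kb segments from the lower-coordinate end, which leave out the last part of the gene, held 14 to 16 each, and none of the 64 was wider than 924 bp (chr16:88132056-88132979). Against this density Grik1 had a single learning peak, chr16:87912748-87913206 (459 bp), 16847 bp from the lower-coordinate end of the gene. It overlapped the long noncoding RNA gene 4930590A17Rik, and the nearest homecage peak was 2442 bp away. Its 0.247 learning peaks per 100 kb were above 30.5% of long genes. No homecage peak lay within 5 kb of the lower end on either side, the nearest beginning 8916 bp inside, and 1 peak of 338 bp lay 1335 bp beyond the higher end.

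Grik3 encodes GluK3, a subunit of low glutamate sensitivity. It is the shortest of the 5 long genes (chr4:125490259-125714173, 223915 bp) and had 27 homecage peaks, 11.5 per 100 kb, the lowest density of the 6 and above 23.6% of long genes. One of them, chr4:125701402-125703342, was 1941 bp wide, wider than 99.8% of the homecage list, and lay 10831 bp inside the end of the gene opposite to the start. The next widest in the gene had 908 bp. The single learning peak, chr4:125594380-125594818 (439 bp), stood near the middle of the gene, 6155 bp from any homecage peak. Its 0.428 learning peaks per 100 kb were above 51.6% of long genes.

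Grik4 encodes GluK4, a subunit enriched in CA3 pyramidal cells. Its body (chr9:42518182-42945000, 426819 bp) had 71 homecage peaks, 16.3 per 100 kb, above 84.5% of long genes, and 12 to 21 in each complete 100 kb segment. Its 2 learning peaks gave 0.458 per 100 kb, above 55.5% of long genes. Beside the one near its start, Grik4 had 1 other, chr9:42736396-42736920 (525 bp), 207451 bp into the gene. A homecage peak of 219 bp, chr9:42736929-42737147, began 8 bp beyond it. Both learning peaks of Grik4 therefore lay close to a homecage peak, 8 and 45 bp away, without overlapping it. The widest homecage peaks, chr9:42897570-42898699 (1130 bp) and chr9:42843348-42844441 (1094 bp), lay 45672 and 99930 bp after the start and had no learning partner.

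Grik5 encodes GluK5, the partner subunit of GluK2 in many hippocampal receptors. It is the shortest member (chr7:25009849-25075694, 65846 bp). The zinc finger gene Zfp574 is next to its higher-coordinate end, the end nearer to the start used here. Its 4 learning peaks gave 5.27 per 100 kb, the highest value of the 6. Among the 2516 protein-coding genes of 50 to 100 kb, a length class chosen after the values were seen, 98.5% had a lower learning density and 1.95% had at least 4 learning peaks, while 45.6% had any. Its 13 homecage peaks, 17.1 per 100 kb, were above 75.9% of that class, and some of them lay in the 5 kb on either side and not in the gene. Only 1 of the 4 learning peaks, the 1231 bp peak before the start, lay inside Grik5. The peak chr7:25008864-25009270 (407 bp) lay 578 bp outside the end opposite to the start. The peak chr7:25080445-25080736 (292 bp) lay inside Zfp574, across the 5 kb limit. The remaining learning peak, 251 bp wide, also lay outside Grik5 and overlapped a homecage peak. The gene body also held the second widest homecage peak of the locus, chr7:25043825-25044972 (1148 bp), and a stretch of 19924 bp without any.

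Grid1 encodes GluD1. It is the longest member (chr14:34820003-35583387, 763385 bp) and had the most homecage peaks, 96, or 12.4 per 100 kb, above 36.2% of long genes. Its single learning peak, chr14:35258737-35258882, was 146 bp wide, the smallest width in the learning list, which 8.90% of learning peaks share. It lay 8159 bp from the nearest homecage peak, the largest such distance at the 6 genes. The 0.129 learning peaks per 100 kb of Grid1 were the lowest value of the 6 and above 24.1% of long genes, 23.1% of which had none. A homecage peak of 461 bp, chr14:34819956-34820416, lay across the lower-coordinate end, and 1 of 724 bp, chr14:35585503-35586226, lay 2115 bp beyond the higher end. The widest, chr14:35362140-35363638 (1499 bp), lay deep in the body. The homecage peaks were spread from 7 to 20 per complete 100 kb segment, and the longest stretch without one, chr14:35111293-35159688, had 48396 bp.

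**Figure D3:**
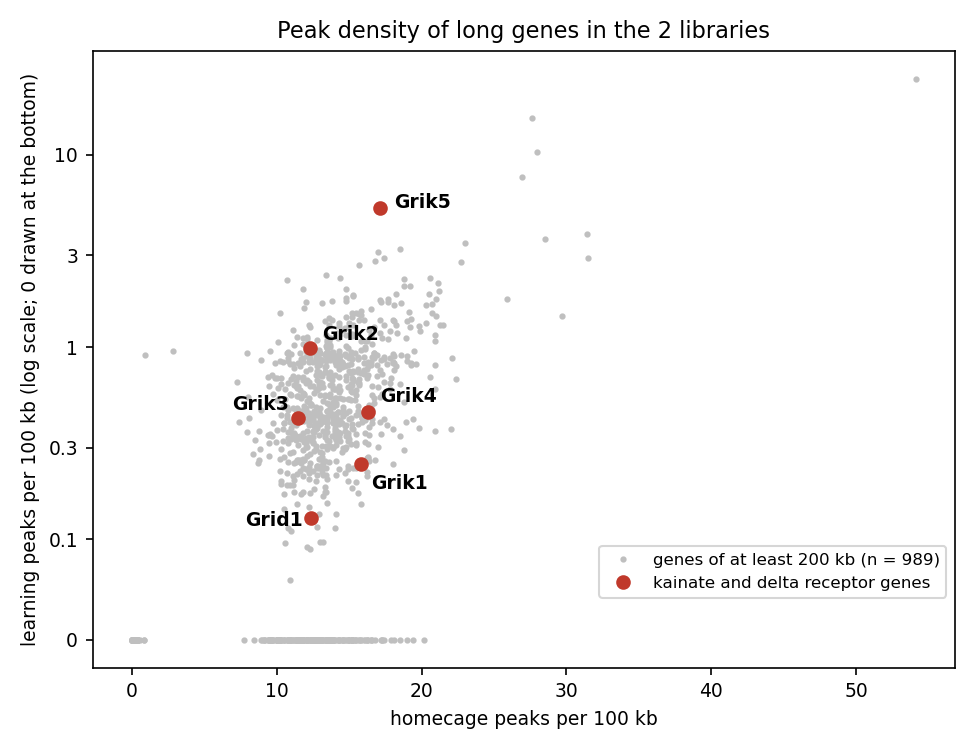
Learning peaks per 100 kb (log scale, with 0 drawn at the bottom) against homecage peaks per 100 kb for the 989 protein-coding genes of at least 200 kb (grey) and the 6 receptor genes (red), Grik5 being shorter than that class. The receptor genes span 11.5 to 17.1 on the homecage axis but 0.129 to 5.27 on the learning axis.

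The overlap between the lists at these genes was close to that of the lists as wholes. By the 1 bp rule, 7 of 16 learning peaks were shared with the homecage list (43.8%, exact 95% interval 19.8 to 70.1%), beside 43.1% of all learning peaks and 34.5% of those at long genes. Of the 358 homecage peaks, 7 overlapped a learning peak (1.96%, 0.790 to 3.99%), beside 2.05% of all homecage peaks and 1.39% at long genes. All 7 shared peaks lay in the windows of Grik2 and Grik5, while none of the 5 learning peaks of Grik1, Grik3, Grik4 and Grid1 was shared. Of the shared learning peaks in the Grik5 window, the one of 251 bp lay outside that gene. With gene bodies alone, 6 of 13 learning peaks were shared (46.2%). When the shared bases had to make up 50% or more of each peak, 3 of the 16 remained shared (18.8%). Counting peaks within 500 bp of each other as shared gave 10 (62.5%), because both learning peaks of Grik4 and the one at the Grik2 start then counted.

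Learning peaks at the 6 genes had a median width of 272 bp (146 to 1231 bp), beside 306 bp for the whole list. Homecage peaks there had a median of 350 bp (147 to 2093 bp), beside 351 bp. At least 500 bp was reached by 4 learning peaks (25%, 7.27 to 52.4%) and 92 homecage peaks (25.7%, 21.2 to 30.6%), beside 15.6% and 24.8% of the whole lists. The 4 wide learning peaks were 2 at Grik2, 1 at Grik4 and 1 at Grik5. Homecage medians differed little between the genes, from 340 bp at Grik1 to 403 bp at Grik5. Learning peaks covered 0.227% of the combined span and homecage peaks 5.46%. Coverage by homecage peaks was 4.64% at Grik2, 4.83% at Grid1, 5.26% at Grik3, 5.88% at Grik1, 6.70% at Grik4 and 10.8% at Grik5. These shares include the 5 kb on either side, where some of the wide homecage peaks counted at Grik5 lay.

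**Figure D4:**
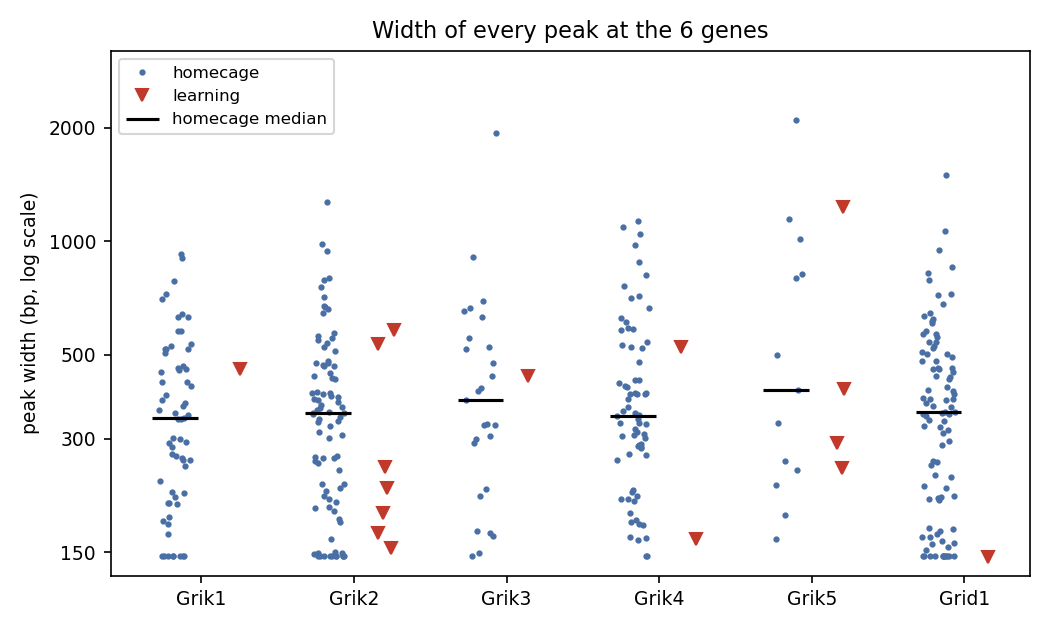
Width in bp (log scale) of each of the 358 homecage peaks (dots, with the median as a line) and 16 learning peaks (triangles) at the 6 genes. The learning peak of 1231 bp at Grik5 stands above the other 15, which range from 146 to 581 bp, and the homecage medians lie between 340 and 403 bp.

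Genes whose products work with these receptors were counted in the same windows. Of 12 partner genes, 5 had a learning peak (41.7%) and all 12 a homecage peak, beside 30.9% and 90.5% of all protein-coding genes. The auxiliary subunit gene Neto2 had 1 learning and 11 homecage peaks, while Neto1, its paralogue, had 0 and 11. C1ql3, which encodes a secreted protein that recruits kainate receptors at mossy fibre synapses, had 2 learning and 3 homecage peaks, and its relative C1ql2 had 0 and 1. Klhl24, whose product binds kainate receptor subunits, had 1 and 4. The presynaptic adhesion genes Nrxn2 and Nrxn3 had 5 and 26, and 5 and 229. None of the cerebellin genes Cbln1, Cbln2, Cbln3 and Cbln4 had a learning peak, and each had 1 to 3 homecage peaks. Pick1, which encodes a PDZ protein that binds kainate receptor tails, had 0 and 8. Among the other ionotropic glutamate receptor subunits, 2 of 4 AMPA and 5 of 7 NMDA receptor genes had a learning peak and all 11 a homecage peak, beside the same 30.9% and 90.5% of all genes and 76.9% and 98.2% of long genes. The AMPA receptor genes include Gria3 on chromosome X, where both lists held few peaks at long genes. Gria3 had 0 learning peaks and 1 homecage peak, or 0.347 homecage peaks per 100 kb. The median learning density was 0.443 per 100 kb for the 6 kainate and delta genes, 0.304 for the AMPA and 0.638 for the NMDA receptor genes, with homecage medians of 14.1, 13.4 and 13.8. Over all protein-coding genes these medians were 0 and 13.8, and over long genes 0.417 and 13.4.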

How the data were processed

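The 2 pan-Kcr libraries of the series, out of 12, were analysed, and the 8 single-nucleus libraries and the 2 input libraries were not used here. Trimmomatic, BWA and MACS2 with the mm10 genome are named in the submitters' processing notes, without versions. The peak names in the deposited files give broad peak calling at p 0.01, with 1 list per library. The deposited files hold 4 columns with no strength or count, and filters and use of the inputs are not given in the sources used here. Libraries were assigned by title. Peaks on chromosomes 1 to 19, X and Y were joined to the RefSeq GRCm38.p6 gene table by any overlap of 1 bp with the body plus 5 kb, and start sites came from the RefSeq promoter table, which covered 4 of the 6 genes. The gene table gives no exons, so exons and introns were not told apart. All 6 genes were named, and all their learning peaks were given by position, except a peak outside Grik5 given by its width alone. The homecage peaks named were mainly those that were widest, nearest a gene end or shared, and not all of these are listed. Some items near or related to the 6 genes are not reported here. The genes and lists were chosen with earlier results of these data known. Exact Clopper-Pearson 95% intervals treat peaks as independent and cover counting error only. Overlap functions were tested on simulated peaks. Alternatives were other windows, widths, merging and overlap rules. Scripts ran in Python 3.11.15 (scipy 1.17.1, pandas 2.3.3, numpy 2.4.6), and figures were drawn with matplotlib 3.10.9.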

Additional observations from a re-analysis of the deposited data

How the results depend on the processing

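No paired analysis was possible because the conditions are represented by a single antibody library each, which also means that no replicate could be left out. Across 10 other settings, 52 of 69 recomputed values stayed within the interval of the reported value, or within 1.5 times for counts and covered shares. Restricting the windows to 5 kb around the gene ends gave 6 learning and 12 homecage peaks, 3 genes with a learning peak, 2.00 homecage peaks per learning peak, 16.7% of homecage peaks shared and 2.13% of the windows under learning peaks. Peaks of at least 500 bp alone gave 4 learning and 92 homecage peaks, 3 genes with a learning peak, and covered shares of 0.109% and 2.54%. A shared part of 50% or more of each peak left 18.8% of learning peaks shared. Assignment by peak centre was not run for covered shares, which count bases and not peaks. The other 2 settings were chosen after seeing the data. The homecage list cut to its 16002 widest peaks, the learning number, left 17 homecage peaks at the 6 genes, at least 2 at each gene, 12.5% of learning and 11.8% of homecage peaks shared, 1.06 homecage peaks per learning peak and 0.756% covered. Leaving out peaks inside other protein-coding genes left 14 learning and 355 homecage peaks. These settings differ by construction in the bases or peaks counted, and the unknown read depth limits every count of learning peaks.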

Other observations

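By a rule on density alone, the long genes nearest to each member in learning and homecage peaks per 100 kb were listed, over the 2 libraries and with distance on the scale of log2(density + 0.1). For Grik2 they were Brinp3 (0.960 learning and 12.0 homecage peaks per 100 kb), Kcnq3, a potassium channel gene (0.967 and 12.9), and Ttn, the gene of the muscle protein titin (1.04 and 11.8). For Grid1 they were Exoc4, a subunit of the exocyst (0.136 and 12.9), Dlgap1, a postsynaptic scaffold gene (0.116 and 12.8), and Naaladl2 (0.147 and 12.2). For Grik4 they were Myo18b (0.460 and 16.1), Fshr, the follicle-stimulating hormone receptor gene (0.443 and 15.9), and Ppp1r12b (0.473 and 16.6). All these genes were picked for their likeness in the 2 densities, so the likeness itself is not a result. No long gene was close to Grik5, the nearest being Abr (3.23 and 18.5) at a distance of 0.698. The nearest neighbours of Grik2, Grid1 and Grik4 lay at 0.0563, 0.0717 and 0.0156. Grik5, at 65846 bp, is itself not in the class of at least 200 kb. Its distance therefore compares a short gene, with 4 learning peaks, with much longer ones, and does not set it apart from genes of its own length.

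Of the 358 homecage peaks at the 6 genes, 33 had the smallest width in the homecage list, 147 bp, which 10.4% of that list shared. The homecage peak before the Grik2 start was one of them.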
